A study of Mus musculus with 6 samples.

Results

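The 33 genes described here encode the core of the NF-kappaB pathway in mouse lung group 2 innate lymphoid cells (ILC2s), from the adaptors that sit below receptors to the transcription factor subunits and the inhibitors that shut them off again. Members were taken by gene symbol from a list of pathway genes, and all 33 were found among the 18478 genes of the deposited count table. The list was chosen with earlier results of these data known. All 33 also passed the filter on low counts, which left 14084 genes for testing. They were measured by RNA-seq in 3 CB2 KO and 3 WT samples of sorted lung ILC2s, tissue lymphocytes that lack antigen receptors and secrete type 2 cytokines. CB2, the product of Cnr2, is the cannabinoid receptor found mainly on immune cells. The CB2 KO mice and the WT mice were both BALB/c and 6 weeks old. Both groups had been given 3 intranasal doses of 1 µg recombinant mouse IL-33, an alarmin whose receptor signals through MyD88 to NF-kappaB, and both sets of cells were then cultured for 24 hours in IL-2 (10 ng/mL) and IL-7 (10 ng/mL). There was no group without IL-33, so every value below is from cells that had met this stimulus. The labels give neither the CB2 KO allele nor the number of mice behind a sample. The tests therefore speak of variation among these 6 samples, part of which may be technical.

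NF-kappaB is a family of dimers built from RelA, RelB, c-Rel, p50 and p52, the last of these cut from the precursors p105 (Nfkb1) and p100 (Nfkb2). In the classical branch, receptors of the IL-1 family recruit MyD88, the IRAK kinases and TRAF6, which activate TAK1 and the IkappaB kinase complex, and the complex marks IkappaB proteins for destruction so that RelA and c-Rel dimers enter the nucleus. The alternative branch runs through the kinase NIK (Map3k14), which TRAF2, TRAF3 and the ubiquitin ligases cIAP1 and cIAP2 hold down, to the processing of p100. The dimers switch on their own inhibitors, among them Nfkbia and Tnfaip3, which limits the response in time. In ILC2s the pathway carries the signal of the IL-33 receptor.

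The libraries held 17141698 to 21103769 estimated counts in CB2 KO and 17850840 to 21621008 in WT. A count of 0 in them allows up to 0.14 to 0.174 CPM (counts scaled to the TMM-adjusted library size), a limit that covers counting error only. The 14 ILC2 markers were all detected, with Gata3 at 932 to 987 CPM in CB2 KO and 994 to 1095 CPM in WT, and Il1rl1, which encodes the IL-33 receptor, at 898 to 944 CPM in CB2 KO and 896 to 999.7 CPM in WT. Of the 6 T cell markers listed, 4 were found. Cd3e stayed at 0.472 to 3.18 CPM in CB2 KO and at 0.00 to 0.792 CPM in WT, and Cd3d and Trac were also low. Trbc2, by contrast, stood at 113 to 129.5 CPM in CB2 KO and 128 to 138.5 CPM in WT. The targeted gene Cnr2 had 9.24, 1.60 and 3.84 CPM in the libraries labelled CB2 KO replicates 1, 2 and 3, against 9.32, 17.4 and 15.8 CPM in WT replicates 1, 2 and 3, and the first of the CB2 KO values matched the lowest WT value. On the first principal component of all tested genes (37.6% of the variance) that same library stood apart from the other 5. Values without it are given beside many of the member results, but not beside the further genes, the ratios or the DESeq2 calls.

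Promoter sequences are shown first for 4 members, because 3 of them, Nfkbia, Nfkbie and Icam1, are targets whose levels in the CB2 KO libraries all lay above WT, and the fourth, Nfkb2, is a precursor gene with several matches close to its start. The windows come from RefSeq (build GRCm38.p6), run 5′ to 3′ on the strand of the gene from 250 bases before to 50 bases after an annotated start, and capitals mark matches to the kappaB consensus of NF-kappaB or to the shorter motif GGAANNNCC, each searched on both strands and free to overlap.
Nfkbia, chr12:55492598-55492897, minus strand: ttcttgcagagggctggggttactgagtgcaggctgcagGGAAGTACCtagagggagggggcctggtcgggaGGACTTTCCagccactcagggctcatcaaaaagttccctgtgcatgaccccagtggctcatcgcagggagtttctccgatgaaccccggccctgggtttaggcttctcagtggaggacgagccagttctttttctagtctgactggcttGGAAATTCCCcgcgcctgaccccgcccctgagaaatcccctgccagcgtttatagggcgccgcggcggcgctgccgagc
Nfkbie, chr17:45555450-45555749, plus strand: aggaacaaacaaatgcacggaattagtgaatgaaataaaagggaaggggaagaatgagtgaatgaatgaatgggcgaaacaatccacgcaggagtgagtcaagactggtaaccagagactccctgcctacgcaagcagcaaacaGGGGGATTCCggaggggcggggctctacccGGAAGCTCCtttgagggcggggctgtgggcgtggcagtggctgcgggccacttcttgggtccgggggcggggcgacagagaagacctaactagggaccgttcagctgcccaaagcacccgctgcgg
Icam1, chr9:21015690-21015989, plus strand: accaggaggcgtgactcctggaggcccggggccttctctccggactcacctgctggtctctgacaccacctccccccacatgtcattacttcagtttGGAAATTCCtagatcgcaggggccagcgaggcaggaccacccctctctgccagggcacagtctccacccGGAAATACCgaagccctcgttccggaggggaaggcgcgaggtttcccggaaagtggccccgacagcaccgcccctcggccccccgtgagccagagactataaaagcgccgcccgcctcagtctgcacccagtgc
Nfkb2, chr19:46304487-46304786, plus strand, the first of its 3 annotated starts: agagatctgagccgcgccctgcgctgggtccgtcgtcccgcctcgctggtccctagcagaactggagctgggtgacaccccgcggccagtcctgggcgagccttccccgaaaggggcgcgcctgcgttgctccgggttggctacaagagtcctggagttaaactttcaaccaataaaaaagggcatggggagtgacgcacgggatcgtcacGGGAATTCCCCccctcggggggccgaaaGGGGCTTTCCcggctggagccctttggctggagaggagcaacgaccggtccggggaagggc
The Nfkbia window held 1 consensus match, GGAAATTCCC, 29 to 20 bases before the start, and 3 matches to the shorter motif, 1 of which lies inside it. In the Nfkbie window the consensus match GGGGGATTCC began 106 bases before the start. Icam1 had matches to the shorter motif alone, GGAAATTCC from 153 bases before the start and GGAAATACC from 84 bases before it. The last 40 bases of the Icam1 window were not found in a GENCODE transcript of the gene. For Nfkbie, Icam1 and Nfkb2 the RefSeq start used here is not the gene start given below. The Nfkb2 window had 3 consensus matches, a pair of which overlap each other.

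Across the list, RefSeq windows were found for 28 members with 38 starts, and 13 of the 28 had at least 1 consensus match. By start, 16 of 38 windows (42.1%) held the consensus, against 8.46% of all 32851 windows of the same length, and 20 of 38 (52.6%) held GGAANNNCC, against 18.5% of all windows. Windows of the same gene can overlap and count a match more than once, as they did for GGGACGCCCC of Irak1. Known targets of NF-kappaB are in the list by choice, so its share is not read as a result. The matches were uneven between roles. Of the inhibitor and IkappaB genes 7 of 9 with a window had the consensus, namely Nfkbia, Nfkbie, Nfkbid, Bcl3, Tnfaip3, Tnip1 and Tnip3. So had 2 of 3 REL genes (Nfkb2 and Rel), 1 of 4 kinase genes (Map3k7) and 3 of 11 adaptor genes (Bcl10, Irak1 and Traf3). Of the 9 members whose groups do not overlap, 7 had a window and 2 of these, Nfkbia and Nfkbie, held the consensus, against 13 of 28 over all members, so the printed windows are not typical of those 7. A match describes the letters of the window and was not read as a site that is bound.

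Taken one by one, 0 of the 33 members passed the test of CB2 KO against WT over all genes, which called 0.107% of the 14084 genes (quasi-likelihood test of edgeR, Benjamini-Hochberg adjusted p under 0.05). Under the same test 6 members had an unadjusted p under 0.05, or 18.2% of the list, against 8.60% of all tested genes. They were Nfkb1 and Chuk on the lower side and Nfkbia, Icam1, Ikbkg and Nfkbiz on the higher side. DESeq2, run on the same counts, called 3 members, Nfkb1, Nfkbia and Icam1, and 2.58% of the genes to which it gave an adjusted p. limma-voom called 0 members. In simulated data, with the changed genes drawn from all tested genes, the edgeR test called 22 of 100 genes changed 2-fold. It also called 3 unchanged genes. That share was not worked out for the members or for smaller folds, and a member that was not called may still differ. In bulk RNA of this kind, a larger share of cells with a transcript and more of it per cell cannot be told apart.

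By direction, the log2 fold change of CB2 KO over WT was positive for 24 members and negative for 9, with a median of 0.22, whereas 7037 of 14084 tested genes were positive with a median of 0.00. With the library labelled CB2 KO replicate 1 dropped the list stood at 25 positive and 8 negative with a median of 0.21. The size of that median leaned on single WT libraries, being 0.11 without WT replicate 1 and 0.34 without WT replicate 2. All 3 CB2 KO libraries lay above all 3 WT libraries for 8 members, or 24.2%, against 6.91% of all tested genes. They were the IkappaB family genes Nfkbia, Nfkbie and Nfkbiz, the genes Ikbkg and Map3k14 of the kinase layer, the adaptor genes Myd88 and Birc2, and Icam1. For 1 member, Nfkb1, all CB2 KO libraries lay below all WT libraries, or 3.03% of the list against 7.20% of all tested genes. With the library labelled CB2 KO replicate 1 dropped, with fewer libraries to separate, 12 members lay above and 2 below, among 14948 tested genes of which 1838 lay above and 1687 below. With 3 libraries a group the exact permutation test, two-sided on CPM, cannot go below p = 0.1, and each of these 9 genes had that value.

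**Figure D1:**
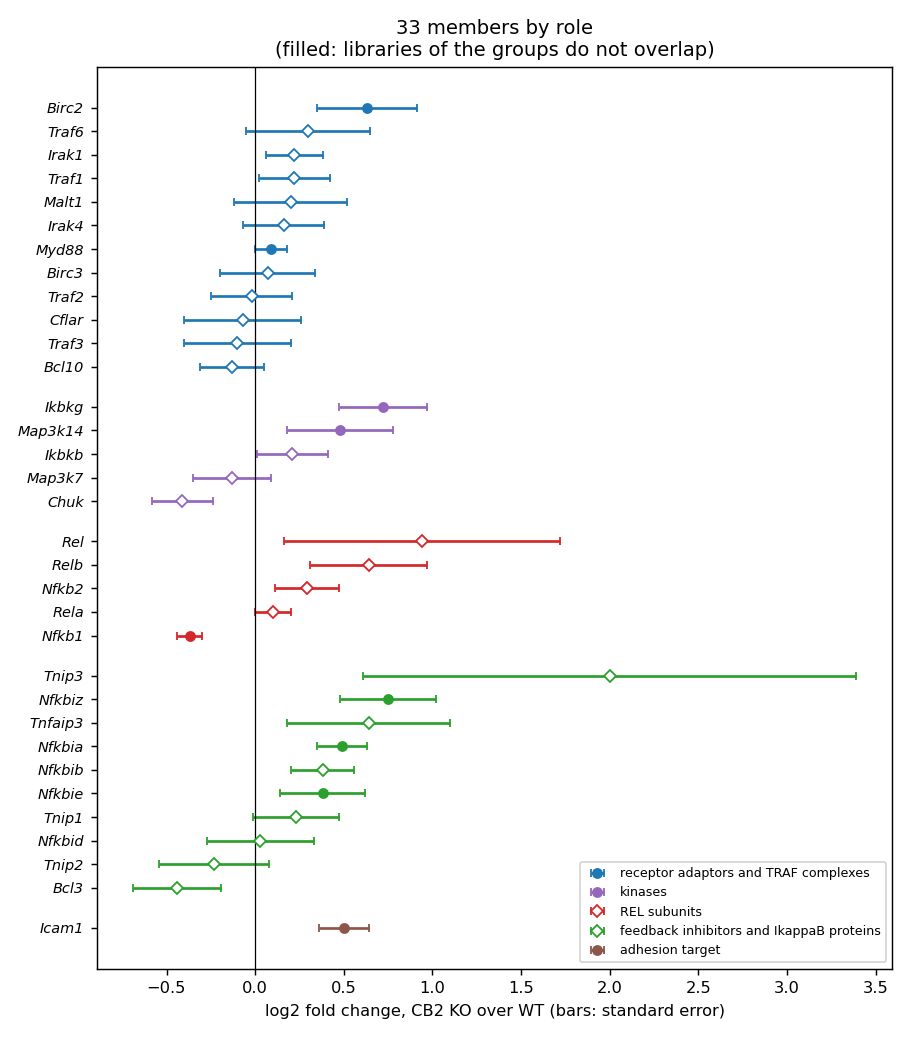
Log2 fold change of CB2 KO over WT for each of the 33 members, grouped by role, with bars for 1 standard error of the fit. Filled points mark the 9 members whose libraries do not overlap between the groups, with Nfkb1 at -0.37 alone to the left of 0 among them and Nfkbiz at 0.75 farthest to the right. The value of Tnip3 rests on libraries at 0 counts and gives no fold.

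Among the REL subunit genes, Nfkb1 had a negative log2 fold change and the other 4 had positive ones. Nfkb1 (chromosome 3, 135584655 to 135691547, minus strand, mm10), which encodes the precursor of p50, had the smallest p of all members. It stood at 318.5, 350.5 and 322 CPM in CB2 KO replicates 1 to 3, against 445, 427 and 406 CPM in WT replicates 1 to 3. Every CB2 KO library was thus under the lowest WT library, and the spread within each group was small. The group means were 330.2 ± 17.7 CPM in CB2 KO and 426 ± 19.5 CPM in WT (mean ± SD, n = 3 each), a log2 fold change of -0.37 (SE 0.07). The adjusted p of Nfkb1 in edgeR was 0.225, and 76 of the 14084 tested genes had a smaller p. DESeq2 gave it an adjusted p of 5.88e-05 with a log2 fold change of -0.36. Without any 1 library the edgeR log2 fold change remained between -0.41 and -0.34.

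Nfkb2 (chromosome 19, 46304320 to 46312385, plus strand), the p100 gene, had 116, 142 and 169 CPM in CB2 KO replicates 1 to 3, against 110.5, 137 and 98.0 CPM in WT replicates 1 to 3. The groups overlapped, and the log2 fold change of 0.29 (SE 0.18) did not pass (edgeR, adjusted p = 0.708). It was 0.16 with CB2 KO replicate 3 dropped and 0.44 with WT replicate 2 dropped. The annotation places 299 exonic bases of Nfkb2 over Psd and 531 over a noncoding gene, both on the opposite strand, and whether reads were counted by strand was not given in the sources used here. Relb (chromosome 7, 19606217 to 19629438, minus strand), the partner of p52 in the alternative branch, had 57.6, 26.0 and 48.6 CPM in CB2 KO replicates 1 to 3, against 24.2, 32.0 and 28.1 CPM in WT replicates 1 to 3. The libraries labelled CB2 KO replicates 1 and 3 were the highest for Relb and replicate 2 lay among the WT values. The Relb log2 fold change was 0.64 (SE 0.33, edgeR adjusted p = 0.645), and 0.37 with the library labelled CB2 KO replicate 1 dropped.

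Rela (chromosome 19, 5637483 to 5648130, plus strand), the main activating subunit of the classical branch, was among the steadiest members. It had 196, 173 and 163 CPM in CB2 KO replicates 1 to 3, against 169, 162 and 166 CPM in WT replicates 1 to 3. Its log2 fold change of 0.10 (SE 0.10, edgeR adjusted p = 0.847) was 0.02 with the library labelled CB2 KO replicate 1 dropped. Rel (chromosome 11, 23736847 to 23770970, minus strand), which encodes c-Rel, was by contrast low and scattered. It had 21.1, 3.92 and 9.65 CPM in CB2 KO replicates 1 to 3, against 11.4, 1.85 and 4.25 CPM in WT replicates 1 to 3, from 38 to 424 counts in a library. In both groups the library numbered 1 was the highest. A log2 fold change of 0.94 (SE 0.78, edgeR adjusted p = 0.796) was 0.12 with the library labelled CB2 KO replicate 1 dropped, 0.50 with WT replicate 2 dropped and 1.95 with WT replicate 1 dropped. On the scale of mean CPM per kb of annotated exons, which allows genes to be compared, Rela stood at 55.8, Nfkb1 at 31.3, Nfkb2 at 28.1, Relb at 9.29 and Rel at 1.16 over all 6 libraries. Those lengths join the exons of all annotated transcripts, so long genes with many transcripts are placed too low.

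**Figure D2:**
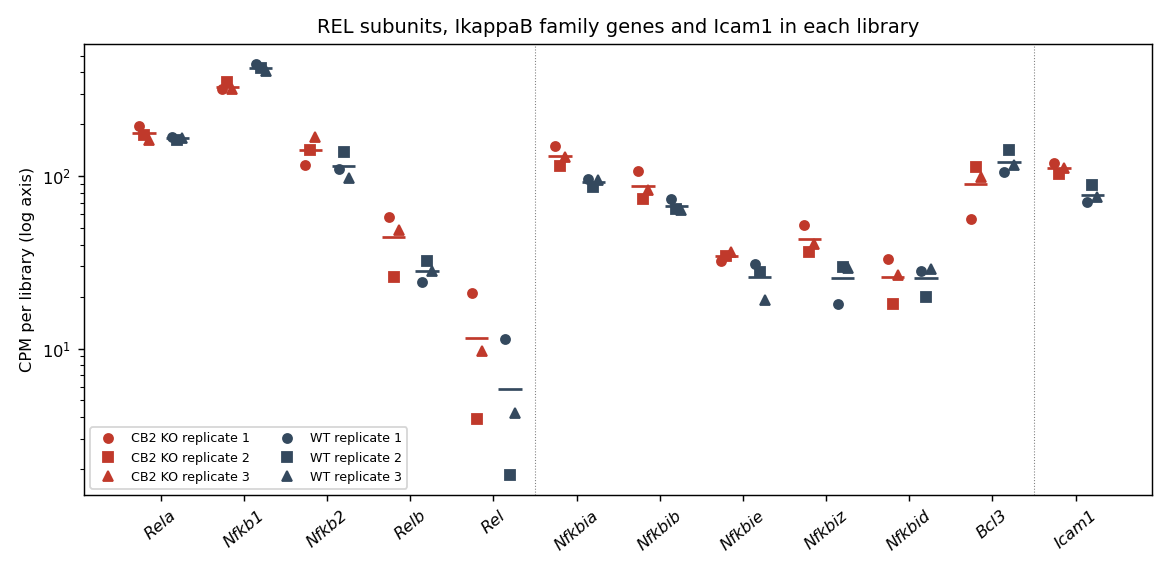
CPM of the 5 REL subunit genes, 6 IkappaB family genes and Icam1 in each library on a log axis, with CB2 KO left of WT for each gene and a line at each group mean. The CB2 KO points lie under all WT points for Nfkb1 and over all WT points for Nfkbia, Nfkbie, Nfkbiz and Icam1.

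The opposite directions of Nfkb1 and of other members can be read as ratios within a library, where scaling factors cancel. These ratios were picked after the values had been seen. Nfkb1 over Nfkb2 was 2.75, 2.46 and 1.90 in CB2 KO replicates 1 to 3, against 4.02, 3.11 and 4.14 in WT replicates 1 to 3. Nfkbia over Nfkb1 was 0.469, 0.329 and 0.399 in CB2 KO replicates 1 to 3, against 0.218, 0.203 and 0.235 in WT replicates 1 to 3, so that its group mean was 1.82 times as high in CB2 KO. Ikbkg over Chuk was 0.441, 0.735 and 0.804 in CB2 KO replicates 1 to 3, against 0.450, 0.183 and 0.286 in WT replicates 1 to 3. The groups overlapped for this last ratio and not for the others. For Nfkbia over Nfkb1 that follows from the separate values of both genes, and no ratio is given a test.

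The inhibitors form the next layer. The classical IkappaB proteins, encoded by Nfkbia, Nfkbib and Nfkbie, bind REL dimers and keep them out of the nucleus. All these genes had positive log2 fold changes and none passed the test over all genes. Nfkbia (chromosome 12, 55489410 to 55492647, minus strand), whose window is printed above, had 149, 115 and 128 CPM in CB2 KO replicates 1 to 3, against 96.8, 86.7 and 95.4 CPM in WT replicates 1 to 3. The lowest CB2 KO library was above the highest WT library. Means were 131 ± 17.3 CPM in CB2 KO and 93.0 ± 5.50 CPM in WT (SD, n = 3 each), a log2 fold change of 0.49 (SE 0.14, edgeR adjusted p = 0.406). DESeq2 gave Nfkbia an adjusted p of 0.0102, and the edgeR log2 fold change was 0.39 with the library labelled CB2 KO replicate 1 dropped. Per kb of exons it was the most abundant member, at 69.6 CPM per kb.

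Nfkbie (chromosome 17, 45555703 to 45563169, plus strand) had 32.3, 34.6 and 36.5 CPM in CB2 KO replicates 1 to 3, against 31.1, 27.9 and 19.1 CPM in WT replicates 1 to 3. Here the groups were separate by little more than 1 CPM, and the log2 fold change was 0.38 (SE 0.24, edgeR adjusted p = 0.704), or 0.22 with WT replicate 3 dropped. Nfkbib (chromosome 7, 28758251 to 28767512, minus strand) had 107, 73.3 and 82.7 CPM in CB2 KO replicates 1 to 3, against 73.8, 64.2 and 63.5 CPM in WT replicates 1 to 3. The second CB2 KO library lay just under the first WT library, so the groups overlapped. Its log2 fold change of 0.38 (SE 0.18, edgeR adjusted p = 0.624) was 0.21 with the library labelled CB2 KO replicate 1 dropped, and 314 of its 2169 exonic bases overlap Ccer2 on the other strand.

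The nuclear IkappaB proteins act on REL dimers already bound to DNA, as activators or repressors depending on the target. Nfkbiz (chromosome 16, 55811375 to 55838899, minus strand), which encodes IkappaB-zeta, had 52.2, 36.1 and 40.6 CPM in CB2 KO replicates 1 to 3, against 18.1, 29.8 and 29.5 CPM in WT replicates 1 to 3. The groups did not overlap and the log2 fold change of 0.75 (SE 0.27) had an adjusted p of 0.501 (edgeR). It was 0.58 with the library labelled CB2 KO replicate 1 dropped and 0.53 with WT replicate 1 dropped. Bcl3, a partner of p50 and p52 dimers, had a lower mean in CB2 KO. It had 56.1, 113 and 99.5 CPM in CB2 KO replicates 1 to 3, against 106, 142 and 116 CPM in WT replicates 1 to 3. The library labelled CB2 KO replicate 1 was the lowest by far, and the log2 fold change of -0.44 (SE 0.25, edgeR adjusted p = 0.679) was -0.19 without it. Nfkbid, which encodes IkappaB-NS, averaged 26.0 ± 7.55 CPM in CB2 KO and 25.5 ± 4.97 CPM in WT.

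Tnfaip3 (chromosome 10, 19000910 to 19015657, minus strand) encodes A20, the ubiquitin-editing enzyme that ends signalling from TRAF6 and RIPK1, and the TNIP proteins help A20 bind ubiquitin. Tnfaip3 had 18.8, 54.4 and 40.7 CPM in CB2 KO replicates 1 to 3, against 14.2, 34.1 and 25.8 CPM in WT replicates 1 to 3. In both groups the library numbered 1 was the lowest, and the groups overlapped. Its log2 fold change was 0.64 (SE 0.46, edgeR adjusted p = 0.761), 0.97 with the library labelled CB2 KO replicate 1 dropped and 0.24 with CB2 KO replicate 2 dropped. Tnip1 averaged 62.4 ± 13.5 CPM in CB2 KO and 53.3 ± 12.3 CPM in WT. Tnip2 averaged 24.8 ± 8.78 CPM in CB2 KO and 28.9 ± 2.82 CPM in WT. Tnip3 was nearly silent, with 0, 132 and 117 counts in CB2 KO replicates 1 to 3, against 0, 0 and 63 counts in WT replicates 1 to 3. Taken as a group of 10, the inhibitor and IkappaB genes had 8 positive and 2 negative log2 fold changes with a median of 0.38.

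The kinase layer held genes on both sides. IKKgamma, also called NEMO and encoded by Ikbkg (chromosome X, 74393290 to 74453854, plus strand), is the regulatory subunit of the IkappaB kinase complex. Ikbkg had 56.6, 81.8 and 78.0 CPM in CB2 KO replicates 1 to 3, against 55.3, 31.8 and 43.9 CPM in WT replicates 1 to 3. The groups were separate, though the library labelled CB2 KO replicate 1 was close to WT replicate 1. The log2 fold change of 0.72 (SE 0.25, edgeR adjusted p = 0.484) was 0.87 with the library labelled CB2 KO replicate 1 dropped. Of the 8110 exonic bases of Ikbkg 418 overlap G6pdx on the opposite strand, so part of its count is uncertain where strand was not used.

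Chuk (chromosome 19, 44073335 to 44107480, minus strand) encodes IKKalpha, the catalytic subunit that the alternative branch depends on. It had 128, 111 and 96.9 CPM in CB2 KO replicates 1 to 3, against 123, 174 and 153 CPM in WT replicates 1 to 3. WT replicate 1 lay inside the CB2 KO range. The log2 fold change was -0.41 (SE 0.17, edgeR adjusted p = 0.571), and it was -0.52 with the library labelled CB2 KO replicate 1 dropped. Ikbkb, the gene of the catalytic subunit IKKbeta, had 149, 106 and 142 CPM in CB2 KO replicates 1 to 3, against 89.7, 141 and 112 CPM in WT replicates 1 to 3. With overlapping groups the log2 fold change was 0.21 (SE 0.20, edgeR adjusted p = 0.836). It was 0.11 with the library labelled CB2 KO replicate 1 dropped, 0.35 with CB2 KO replicate 2 dropped, 0.05 with WT replicate 1 dropped and 0.40 with WT replicate 2 dropped.

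Map3k14 (chromosome 11, 103219762 to 103267472, minus strand), the gene of NIK, had 23.5, 26.4 and 21.7 CPM in CB2 KO replicates 1 to 3, against 11.1, 19.7 and 21.5 CPM in WT replicates 1 to 3. The lowest CB2 KO value was just above the highest WT value, and WT replicate 1 was far under the rest. A log2 fold change of 0.48 (SE 0.30, edgeR adjusted p = 0.705) was 0.22 without WT replicate 1. Map3k7, the gene of TAK1, had 78.7, 74.9 and 89.8 CPM in CB2 KO replicates 1 to 3, against 63.5, 113 and 90.6 CPM in WT replicates 1 to 3, with a log2 fold change of -0.13 (SE 0.22, edgeR adjusted p = 0.911) that was 0.08 with WT replicate 2 dropped, -0.34 with WT replicate 1 dropped and -0.21 with CB2 KO replicate 3 dropped. It is the 1 member on chromosome 4, the chromosome of Cnr2, and starts 103.9 Mb from it.

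Among the receptor adaptors, Myd88 (chromosome 9, 119335934 to 119341411, minus strand), which links the IL-33 receptor to the pathway, showed a small and tight separation. It had 136, 142 and 142 CPM in CB2 KO replicates 1 to 3, against 127, 133 and 136 CPM in WT replicates 1 to 3. The highest WT library was within 1 CPM of the lowest CB2 KO library. Its log2 fold change was 0.09 (SE 0.09, edgeR adjusted p = 0.852), and 290 of its 2576 exonic bases overlap Acaa1a on the other strand. The IRAK kinases, which MyD88 recruits, overlapped between groups, with Irak1 at 102 ± 5.40 CPM in CB2 KO and 87.2 ± 17.6 CPM in WT, and Irak4 at 38.9 ± 9.33 CPM in CB2 KO and 34.3 ± 1.06 CPM in WT. Traf6, the ubiquitin ligase below them, averaged 67.8 ± 17.7 CPM in CB2 KO and 53.1 ± 24.5 CPM in WT, with WT replicate 3 the lowest library at 25.4 CPM.

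Birc2 (chromosome 9, 7818227 to 7837064, minus strand), the gene of cIAP1, had 52.9, 43.0 and 49.0 CPM in CB2 KO replicates 1 to 3, against 36.2, 37.7 and 17.6 CPM in WT replicates 1 to 3. The groups did not overlap and the log2 fold change was 0.63 (SE 0.28, edgeR adjusted p = 0.593), with 0.56 with the library labelled CB2 KO replicate 1 dropped and 0.38 with WT replicate 3 dropped. Birc3, the gene of the close relative cIAP2, starts 11.6 kb from the end of Birc2 and averaged 85.9 ± 14.6 CPM in CB2 KO and 81.7 ± 26.9 CPM in WT. The TRAF genes that work with these ligases overlapped between groups. Traf1, a known NF-kappaB target, averaged 189 ± 42.7 CPM in CB2 KO and 163 ± 29.2 CPM in WT, Traf2 70.8 ± 19.3 CPM in CB2 KO and 71.0 ± 11.0 CPM in WT, and Traf3 65.8 ± 15.1 CPM in CB2 KO and 69.7 ± 25.9 CPM in WT.

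Bcl10 and Malt1 form the complex through which antigen receptors and some G protein-coupled receptors reach the IkappaB kinases, and Cflar encodes c-FLIP, a caspase-8 inhibitor and NF-kappaB target. Bcl10 averaged 60.5 ± 10.9 CPM in CB2 KO and 65.8 ± 6.57 CPM in WT. Malt1 averaged 20.5 ± 5.50 CPM in CB2 KO and 18.1 ± 4.23 CPM in WT. Cflar averaged 53.6 ± 11.2 CPM in CB2 KO and 56.8 ± 23.4 CPM in WT. Differences between the means of these genes were smaller than the SD within either group. Of the 12 adaptor genes 8 were positive and 4 negative, with a median log2 fold change of 0.12.

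Icam1 (chromosome 9, 21015985 to 21028817, plus strand) encodes the adhesion ligand of the integrin LFA-1 and is a known target of RelA. It had 119, 103 and 111 CPM in CB2 KO replicates 1 to 3, against 70.5, 88.9 and 75.3 CPM in WT replicates 1 to 3. All CB2 KO libraries were above all WT libraries, at 111 ± 7.73 CPM in CB2 KO and 78.2 ± 9.53 CPM in WT (SD, n = 3 each). The log2 fold change was 0.50 (SE 0.14), with a Benjamini-Hochberg adjusted p of 0.389 in edgeR and 0.00749 in DESeq2. It remained between 0.42 and 0.61 when any 1 library was left out. An antisense gene shares 511 of its 4360 exonic bases.

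Nfkbia, Nfkbiz and Icam1 are also expressed by myeloid and mast cells, and markers of such cells were not level between the groups. Of the 7 macrophage and monocyte markers listed, 5 were found and all 5 had a higher mean in CB2 KO, with summed levels of 150.2 to 169 CPM in CB2 KO against 12.1 to 59.2 CPM in WT. Most of that sum was Chil3, at 108 to 143 CPM in CB2 KO and 0.559 to 47.5 CPM in WT. Lyz2 was at 10.4, 20.2 and 21.2 CPM in CB2 KO replicates 1 to 3, against 1.12, 1.27 and 2.55 CPM in WT replicates 1 to 3, with no overlap. Cd68 overlapped between the groups, Csf1r was at 0 in CB2 KO replicate 1 and in WT replicates 1 and 3, and Mrc1 at 0 in 5 of 6 libraries. For the mast cell and basophil list, 6 of 7 had a higher mean in CB2 KO, and the sums were 41.4 to 86.9 CPM in CB2 KO against 17.5 to 28.3 CPM in WT. The 5 dendritic cell markers summed to 119 to 158 CPM in CB2 KO and 87.2 to 121 CPM in WT, with a higher mean in CB2 KO for 4 of them. The epithelium and endothelium list went the other way, with 1 of 4 genes found higher in CB2 KO. Its sums were 47.5 to 58.5 CPM in CB2 KO and 50.7 to 144.6 CPM in WT. The WT sums varied mostly with Scgb1a1, at 27.6, 0 and 88.4 CPM in WT replicates 1 to 3, against 0, 3.82 and 8.84 CPM in CB2 KO replicates 1 to 3. Epcam and Pecam1 overlapped between the groups. Of the 14 ILC2 markers 3 had a higher mean in CB2 KO. Their sum of 13870 to 16280 CPM in CB2 KO and 13500 to 14970 CPM in WT was mostly Il5, at 7888 to 10010 CPM in CB2 KO and 6972 to 7871 CPM in WT, while Nmur1 stood at 111 to 127 CPM in CB2 KO and 177 to 199.9 CPM in WT, and Icos at 400.3 to 465 CPM in CB2 KO and 494 to 610.1 CPM in WT. The part of these markers in the values of the members was not tested.

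**Figure D3:**
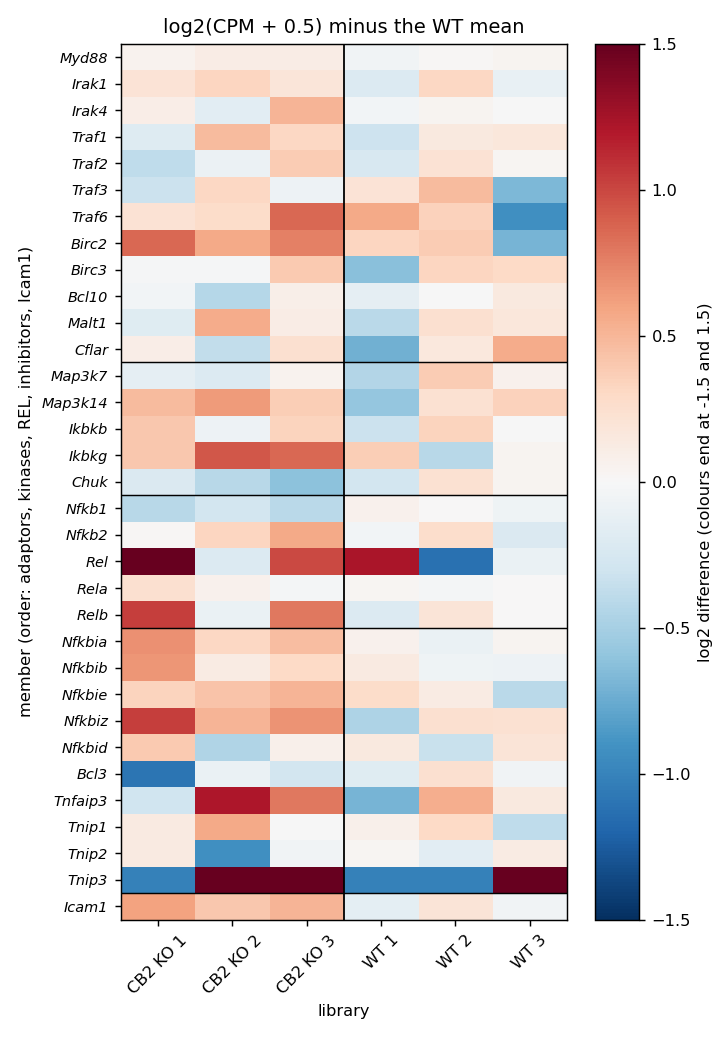
Log2(CPM + 0.5) of each member in each library minus the mean of the WT libraries, in the order adaptors, kinases, REL subunits, inhibitors and Icam1, with CB2 KO left of WT. The rows of Nfkbia, Nfkbiz and Icam1, and of several other members, are above the WT mean in all 3 CB2 KO libraries. Those of Nfkb1, Chuk and Bcl3 are below it in all 3. The first WT column is the lowest of the 6 for 13 of 33 members.

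Libraries differed within groups in how the list sat. The library labelled CB2 KO replicate 1 held the highest of the 6 values for 11 members, and WT replicate 1 held the lowest for 13 of 33. Relative to the WT mean of log2(CPM + 0.5), the median member was at 0.14, 0.13 and 0.34 in CB2 KO replicates 1 to 3, against -0.14, 0.19 and 0.02 in WT replicates 1 to 3. These medians overlap, since WT replicate 2 lay above CB2 KO replicates 1 and 2. The median coefficient of variation of a member was 19.3% in CB2 KO and 20.1% in WT, against 24.5% in CB2 KO and 21.8% in WT over all tested genes. Myd88 was the tightest member in CB2 KO, at 2.35% there and 3.37% in WT, and Rel among the widest, at 75.6% in CB2 KO and 85.0% in WT.

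**Figure D4:**
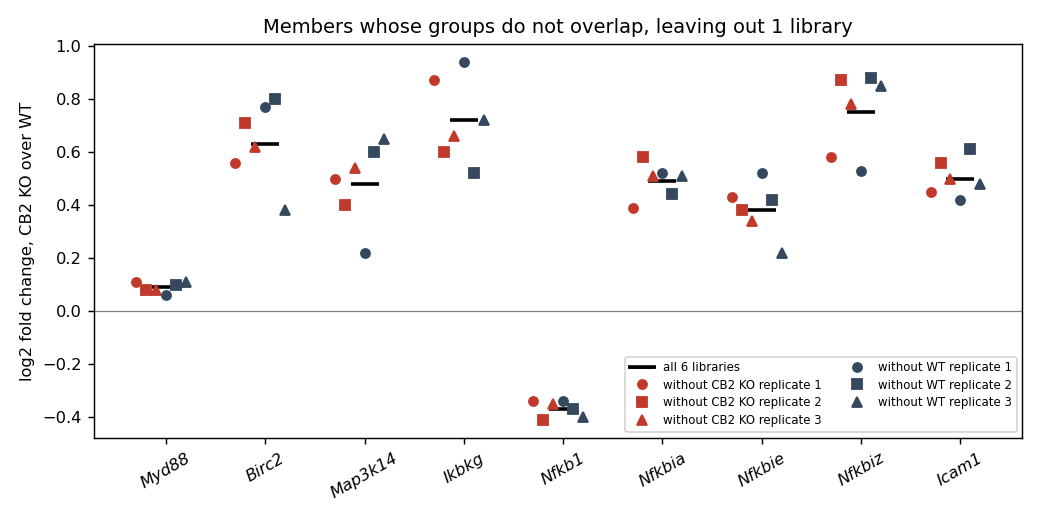
Log2 fold change of CB2 KO over WT for the 9 members whose groups do not overlap, with all 6 libraries (short lines) and without each library in turn (points). All refitted values keep the sign of the full fit, and the lowest positive ones outside Myd88 are 0.22 for Map3k14 without WT replicate 1 and 0.22 for Nfkbie without WT replicate 3.

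Further genes of the pathway were taken from a list of 125 receptors, adaptors, kinases, cofactors and targets, of which 120 were found and 107 tested. This list was written with earlier results of these data known, so its counts are not independent of them. In edgeR 0 of 107 passed over all genes, with 12 on the higher and 3 on the lower side at an unadjusted p under 0.05, beside 8.60% of all tested genes in either direction. DESeq2 called 7, all higher in CB2 KO, beside 2.58% of all genes to which it gave an adjusted p. Of these 107 genes 61 were positive and 46 negative, and their median log2 fold change was 0.08. Over all 14084 tested genes 7037 were positive, with a median of 0.00. The 36 tested target genes stood at 28 positive and 8 negative with a median of 0.25. The 10 further kinases had 4 positive and 6 negative (median -0.06), and the 14 cofactors and inhibitors 4 positive and 10 negative (median -0.10). Because of how the list was written, the roles are not set against each other.

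Among targets, Sqstm1, the gene of the autophagy receptor and signalling scaffold p62, averaged 737 ± 67.2 CPM in CB2 KO and 464 ± 25.0 CPM in WT, a log2 fold change of 0.67 (SE 0.08) just short of the threshold (edgeR adjusted p = 0.0579). Csf2, the GM-CSF gene, averaged 831 ± 99.4 CPM in CB2 KO and 541 ± 6.14 CPM in WT (edgeR adjusted p = 0.0884). Gadd45b, a stress-induced target, averaged 30.4 ± 4.81 CPM in CB2 KO and 13.4 ± 5.76 CPM in WT (edgeR adjusted p = 0.409). For these genes, as for Lta and 3 more that DESeq2 called in the receptor and adaptor groups (Il1r2, Tnfrsf4 and Traf4), the CB2 KO libraries all exceeded the WT libraries. Over the whole further list this held for 14 of 107 genes, against 6.91% of all tested genes. For 7 of 107, Tirap and Nkiras1 among them, all CB2 KO libraries lay below WT, against 7.20% of all tested genes.

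Of the receptors, Il1r2, which encodes the decoy receptor that captures IL-1 without signalling, averaged 389 ± 48.8 CPM in CB2 KO and 217 ± 10.6 CPM in WT (log2 fold change 0.84, SE 0.11, edgeR adjusted p = 0.0614). Tnfrsf4, the OX40 gene, averaged 38.9 ± 5.90 CPM in CB2 KO and 18.0 ± 3.06 CPM in WT (edgeR adjusted p = 0.275), and Tnfrsf11a, the RANK gene, 52.8 ± 11.7 CPM in CB2 KO and 31.3 ± 10.8 CPM in WT (edgeR adjusted p = 0.509). Of the adaptors, Traf4 averaged 25.4 ± 3.13 CPM in CB2 KO and 12.6 ± 1.24 CPM in WT (edgeR adjusted p = 0.351). Tirap, which brings MyD88 to Toll-like receptors, averaged 9.61 ± 4.66 CPM in CB2 KO and 22.8 ± 4.51 CPM in WT (edgeR adjusted p = 0.452), and Tax1bp1, an A20 partner, 568 ± 35.4 CPM in CB2 KO and 489 ± 35.7 CPM in WT (edgeR adjusted p = 0.506).

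Of the further kinases 0 of 10, and of the cofactors and inhibitors 1 of 14, had an unadjusted p under 0.05, which is near the 8.60% of all tested genes. Rps6ka5, the gene of the kinase MSK1, averaged 59.7 ± 9.08 CPM in CB2 KO and 90.8 ± 27.4 CPM in WT (edgeR adjusted p = 0.594). The IKK-related kinase gene Tbk1 averaged 156 ± 25.3 CPM in CB2 KO and 144 ± 13.9 CPM in WT, and Map3k5 69.7 ± 15.8 CPM in CB2 KO and 61.3 ± 13.0 CPM in WT. Nfkbil1, an IkappaB-like gene, averaged 12.5 ± 3.40 CPM in CB2 KO and 6.43 ± 1.26 CPM in WT (edgeR adjusted p = 0.562). Nkiras1, which encodes a Ras-like binder of IkappaB proteins, averaged 7.90 ± 1.78 CPM in CB2 KO and 13.4 ± 2.83 CPM in WT (edgeR adjusted p = 0.611), and Commd1, which promotes the removal of RelA from DNA, 64.6 ± 8.29 CPM in CB2 KO and 77.5 ± 13.8 CPM in WT (edgeR adjusted p = 0.762).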

How the data were processed

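RNA from 10 ng per sample was sequenced in 3 CB2 KO and 3 WT samples, grouped by sample title. The authors deposited estimated counts per gene from the expectation-maximization quantifier of Partek, per the file headers. Tools in the submitters' processing notes are STAR (there called 3.5.3), CASAVA 1.8.2 and Partek, with build mm10. The authors also deposited a normalized signal (estimated count plus 1, over a library factor), used in an alternative.

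Estimated counts were rounded and tested with edgeR 4.0.16 in R 4.3.3 across all genes (TMM, filterByExpr, robust glmQLFit without the legacy method, glmQLFTest, Benjamini-Hochberg adjustment, threshold 0.05). CPM use TMM-scaled library sizes. The SE is the log2 fold change divided by the root of F. DESeq2 1.42.0, limma 3.58.1, other scalings and filters, the replicate block and each left-out library were alternatives. The workflow was tested on simulated data. Exact permutation tests used scipy 1.17.1.

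Members and lists were chosen with earlier results of these data known. Values per library are given for the REL, classical IkappaB and kinase genes, Tnfaip3, Myd88 and all members whose groups do not overlap; of the further genes the 3 with the smallest p per role were named, beside Lta. Bcl3 and Tnip3, the other members given per library, were chosen after their values were seen. Starts of all 33 members equal GENCODE M21, and ends do so after 1 is taken from the deposited stop. Of 38 promoter windows 35 ended in 40 bases found in a GENCODE transcript of the gene.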

Additional observations from a re-analysis of the deposited data

How the results depend on the processing

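Across 15 alternatives, the count of members with a positive log2 fold change was 22 to 27 of 33 and their median 0.11 to 0.34. DESeq2 was the 1 alternative that called members, 3 of 33, and other pathway genes, 7 of 107; all other alternatives gave 0 for both. Members whose groups did not overlap numbered 9 with all libraries and 9 to 14 when 1 was left out, where fewer libraries have to separate. There were 14 without CB2 KO replicate 1 and 14 without CB2 KO replicate 2. Without CB2 KO replicate 1, 1838 of 14948 tested genes lay above and 1687 below. The share over all genes was not worked out for the other left-out libraries, so those counts are not read as particular to the members. Signs turned for the members named next, whose log2 fold changes with all libraries ran from -0.23 (Tnip2) to 0.30 (Traf6). The log2 fold change of Cflar was 0.01 with limma-voom, that of Nfkbid -0.01 with the authors' normalized signal, and that of Traf2 0.00 with DESeq2 and with library size alone. Leaving out 1 library gave ranges of -0.23 to 0.02 for Bcl10, -0.20 to 0.24 for Birc3, -0.38 to 0.22 for Cflar, -0.03 to 0.31 for Irak4, -0.05 to 0.37 for Malt1, -0.34 to 0.08 for Map3k7, -0.21 to 0.25 for Nfkbid, -0.47 to 0.05 for Tnip2, -0.23 to 0.14 for Traf2, -0.34 to 0.14 for Traf3 and 0.00 to 0.58 for Traf6; the cause was not tested. Whether replicate numbers pair the samples cannot be settled with 3 libraries a group. Deviations of same-numbered libraries correlated at 0.0737, 0.031 and 0.0199, and those of differently numbered libraries at -0.056 to 0.0318. With the replicate block 24 members were positive, 0 were called, and 3 genes were called in all against 15. Depth limits what a count of 0, as in 3 libraries for Tnip3, can show, to 0.14 to 0.174 CPM.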
